A study of Homo sapiens with 12 samples.

Results

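The 10 genes described here belong to the retinoid pathway, and they were taken from 60107 gene identifiers measured by 3′ RNA-sequencing. DHRS3 was chosen by its value in these data, since it was lower with carmofur in the U251P libraries, and ALDH1A3, RDH10, RDH11, CRABP2, RARA, RARB, RARG, RXRA and RXRB were added as enzymes, a binding protein and receptors of the same pathway. Each symbol matched 1 identifier. U251 is an established human glioblastoma line, and carmofur is a small molecule that inhibits acid ceramidase. The study asked which genes change with carmofur in conditions under which the cells migrate.

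The labels give 4 groups of 3 libraries each: U251P with DMSO as the vehicle, U251P with carmofur, U251T with DMSO and U251T with carmofur. Cells of all 4 groups had been kept without serum for 16 h and then for 24 h in full medium (10% FBS, a B27 equivalent, EGF and FGF) with DMSO or carmofur. The study's methods give 5 µM carmofur for U251, specify the B27 equivalent as free of vitamin A, and name neither U251P nor U251T. What the letters P and T stand for was not given in the sources used here. The study's methods state biological triplicates for all experiments, the labels number the replicates without saying more, and p-values measure the spread between these libraries.

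The U251P libraries held 3295045 to 6350873 counts each, and the U251T libraries 383633 to 2817379. QuantSeq reads the 3′ end of a transcript, so levels need no scaling by length, and they are given as CPM, the count of a gene per 1e6 counts of the library. A count of 3, taken as the floor, was worth 0.472 to 0.91 CPM in a U251P library and 1.065 to 7.82 CPM in a U251T library. Intervals and floors cover counting error only.

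The libraries labelled U251T stood apart from those labelled U251P. Processed pseudogenes took 8.51% to 9.41% of the counts in U251T and 0.144% to 0.169% in U251P, and mitochondrial ribosomal RNA took 0.336% to 0.717% against 13.7% to 19.0%. B2M, which nearly every human cell expresses, had 1 to 7 counts in the U251T libraries and 5655 to 12332 in U251P. GAPDH and ACTB had 78 to 601 and 99 to 744 counts in U251T, against 12357 to 21565 and 3409 to 6722 in U251P. The pseudogene MTCO3P13 went the other way, with 5955 to 30689 counts in U251T and 0 to 1 in U251P. Of 12 glioma or astrocyte markers, 8 had 3 counts or more in each U251P library and 4 to 5 in each U251T library, with VIM the most abundant and AQP4 and OLIG2 at 0 in both. The summed level of the list was 4040 to 5010 CPM in U251P and 7820 to 14200 CPM in U251T. NES had 0 to 2 counts and SOX2 0 to 1 in U251T, against at least 1512 and 322 in U251P, while GFAP had 0 to 1 counts in U251P and 8 to 154 in U251T. The 6 fibroblast markers summed to 18.8 to 23.5 CPM in U251P and 1960 to 2800 CPM in U251T. The epithelial list summed to 158 to 226 CPM in U251P and 5.32 to 17.7 CPM in U251T, and the neuron list to 10.6 to 20.0 and 2.84 to 33.0 CPM. The endothelial and immune lists stayed at or under 0.927 and 5.38 CPM in every library. Markers also differed with carmofur within U251T, and the sums and genes given next did not overlap unless said. There the glioma or astrocyte list summed to 11700 to 14200 CPM with vehicle and 7820 to 9880 CPM with carmofur, VIM was at 12700 ± 1430 and 7940 ± 996 CPM and GFAP at 72.0 ± 15.2 and 34.0 ± 15.8 CPM (SD, n = 3). CD44, the gene of that list next in abundance, went the other way, at 587 ± 37.8 CPM with vehicle and 774 ± 44.1 CPM with carmofur, so that the lower sum is that of VIM. The fibroblast list summed to 1960 to 2270 CPM with vehicle and 2600 to 2800 CPM with carmofur, although COL1A2 (444 ± 1.90 and 401 ± 39.4 CPM) and PDGFRB (6.30 ± 0.705 and 4.79 ± 1.91 CPM) had lower means and overlapped. The neuron list summed to 2.84 to 16.1 and 16.7 to 33.0 CPM. Unprocessed pseudogenes took 1.83% to 1.91% and 2.34% to 2.77% of the counts. Every difference between the lines, and every carmofur difference in U251T, given below moves with these values, and their part in it was not tested. Fewer cells of a type and less RNA per cell cannot be told apart. Whether reads were assigned to genes alike in both lines was not tested either.

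Retinoic acid is made from vitamin A (retinol) in a pair of oxidation steps. Retinol dehydrogenases such as RDH10 oxidize retinol to retinaldehyde, DHRS3 reduces retinaldehyde back to retinol, and ALDH1A enzymes oxidize retinaldehyde to retinoic acid. CRABP2 carries retinoic acid to its nuclear receptors (RARA, RARB, RARG), which bind DNA as dimers with retinoid X receptors (RXRA, RXRB), and DHRS3, RARB and CRABP2 are themselves known as retinoic acid targets.

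Retinoic acid receptors bind a pair of half-sites in direct repeat, and the RefSeq promoter windows (250 bases before to 50 bases from a start site, GRCh38.p14) were searched on both strands for the half-sites AGGTCA or AGTTCA or GGGTCA or GGTTCA. The windows counted here belonged to 9 of the 10 genes, 18 in all. No RDH10 window was among them, so whether RDH10 holds a match was not tested. Pairs of half-sites 1, 2 or 5 bases apart were searched for, and 1 of the 18 windows held any. This was a pair 5 bases apart (the DR5 element) in the window of a RARB start. Over all genes, 31 of 34796 windows held DR5 (0.0891%), 44 a spacing of 1 (0.126%) and 13 a spacing of 2 (0.0374%). Single half-sites occurred in 8 of the 18 windows, which belonged to 5 genes, and in 38.6% of all windows. The 3 DHRS3 windows held 0, 1 and 1. Those shown are a DHRS3 window (chr1:12616740-12617039, minus strand), for the gene that gave the list its start, and the RARB window (chr3:25428013-25428312, plus strand), for the DR5 match, with the single half-site of the DHRS3 window and the DR5 repeat of the RARB window in capitals. The RARB window holds a further half-site, GGGTCA at -83, in lower case. 3′ counts do not tell which start site was used, and a match is a description only.
DHRS3: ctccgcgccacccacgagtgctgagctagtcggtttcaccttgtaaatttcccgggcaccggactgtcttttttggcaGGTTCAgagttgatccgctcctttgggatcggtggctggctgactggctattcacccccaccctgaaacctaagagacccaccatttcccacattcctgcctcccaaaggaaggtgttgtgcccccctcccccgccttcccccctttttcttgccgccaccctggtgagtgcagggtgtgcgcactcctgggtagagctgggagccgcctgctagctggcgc
RARB: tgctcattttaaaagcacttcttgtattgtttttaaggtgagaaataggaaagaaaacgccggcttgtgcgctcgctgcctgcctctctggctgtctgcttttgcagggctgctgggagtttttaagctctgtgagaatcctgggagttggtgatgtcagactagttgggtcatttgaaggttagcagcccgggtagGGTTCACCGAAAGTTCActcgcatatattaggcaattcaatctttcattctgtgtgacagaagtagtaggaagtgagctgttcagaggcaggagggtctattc

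In U251P the 10 genes spanned a wide range of levels. In vehicle the order was ALDH1A3 (980 ± 116 CPM, SD, n = 3), RDH11 (105 ± 8.92), DHRS3 (42.8 ± 8.66), RXRA (32.2 ± 2.52), RARA (22.7 ± 2.37), RXRB (18.6 ± 3.65), RARB (7.08 ± 0.893), RDH10 (6.19 ± 2.00), RARG (3.73 ± 0.838) and CRABP2 (2.22 ± 0.376). Libraries of neighbours overlapped between DHRS3 and RXRA, RARA and RXRB, RARB and RDH10, and RDH10 and RARG. In the libraries labelled U251T with vehicle the order was another. RARA led (91.1 ± 22.0 CPM, SD, n = 3), RDH10 (44.3 ± 3.28) and RARG (40.9 ± 11) came next with overlapping libraries, CRABP2 (7.19 ± 1.67), RXRB (6.66 ± 3.71) and RDH11 (3.96 ± 3.57) followed with overlap, and DHRS3, ALDH1A3, RARB and RXRA had a single count or none over the 3 libraries.

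**Figure D1:**
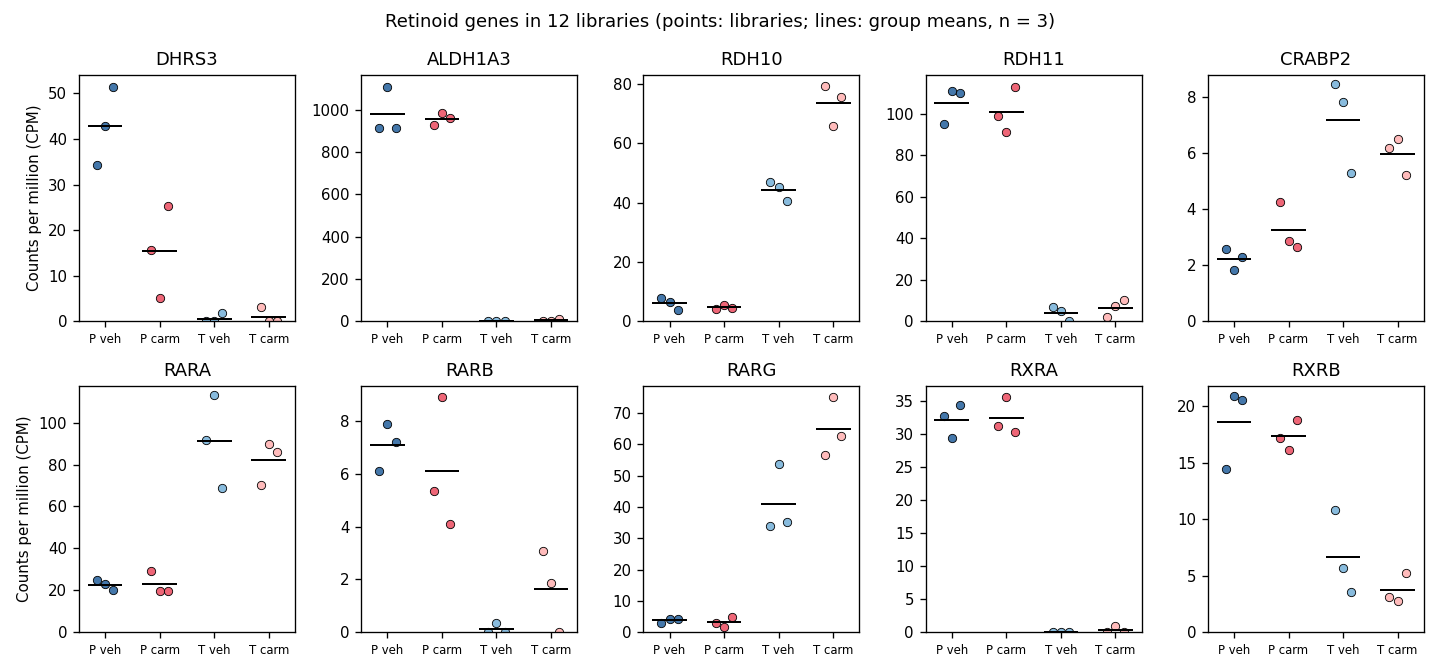
CPM of the 10 retinoid genes (vertical axes, linear, from 0) in the 12 libraries, by group on the horizontal axis (P, U251P; T, U251T; veh, vehicle; carm, carmofur); points are libraries and lines group means. DHRS3 lay between 34.2 and 51.5 CPM with vehicle and between 5.04 and 25.3 CPM with carmofur in U251P, and ALDH1A3 between 913 and 1110 CPM in the 6 U251P libraries.

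DHRS3 lies on chromosome 1 from 12567910 to 12617731, minus strand (GENCODE 29, GRCh38). Its level in the 3 U251P vehicle libraries was 34.2, 42.8 and 51.5 CPM (173, 141 and 271 counts). With carmofur it was 15.7, 5.04 and 25.3 CPM (100, 30 and 105 counts). Each carmofur library was below each vehicle library, and replicate 2 was the lowest. The mean with carmofur was 0.359 of that with vehicle, and the log2 fold change was -1.51 ± 0.339 (SE). Since this contrast selected DHRS3, these values are a description with no test. Without carmofur replicate 2, the library with the highest share of mitochondrial ribosomal RNA in U251P (19.0%), the log2 fold change was -1.08, the closest to 0 of the values with a library left out, which ranged from -2.02 to -1.08. The part of that share was not tested.

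The other enzymes showed no such separation in U251P. ALDH1A3, which oxidizes retinaldehyde to retinoic acid, was at 914, 1110 and 913 CPM with vehicle and 928, 985 and 963 CPM with carmofur, groups that overlapped. The level of RDH11 was 94.8 to 111 CPM with vehicle and 91.2 to 113 CPM with carmofur, and that of RDH10 was 3.99 to 7.90 and 4.25 to 5.38 CPM on 19 to 40 counts a library. Log2 fold changes were 0.00 ± 0.0999 (SE) for ALDH1A3, -0.03 ± 0.116 for RDH11 and -0.34 ± 0.320 for RDH10. That of RDH10 was -0.58 to -0.11 with a library left out.

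CRABP2 was sparse in U251P, where the vehicle libraries held 13, 6 and 12 counts and the carmofur libraries 27, 17 and 11. In CPM these were 2.57, 1.82 and 2.28 against 4.25, 2.86 and 2.65. Each carmofur library was above each vehicle library, by little in replicate 3. The log2 fold change was 0.56 ± 0.391 (SE), which did not pass the test (edgeR adjusted p = 0.999). With a library left out it was 0.34 to 0.67. The receptors overlapped between the groups. Their log2 fold changes lay between -0.25 ± 0.419 (SE) for RARG and 0.04 ± 0.179 for RARA, with RARB at -0.15 ± 0.314, RXRB at -0.07 ± 0.189 and RXRA at 0.03 ± 0.147.

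In U251P edgeR called 0 of 11426 genes (0%) at an adjusted p under 0.05, and 402 were under 0.05 before adjustment. DESeq2 gave 0 and 235. All 10 genes passed the filter on low counts. Libraries did not overlap for 2 of the 10 (DHRS3 lower, CRABP2 higher) against 8.54% of all genes tested, and nothing is read from that count since DHRS3 was chosen on it. The sign of the log2 fold change of ALDH1A3, RDH11, RARA, RARB, RARG, RXRA and RXRB turned when a library was left out.

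**Figure D2:**
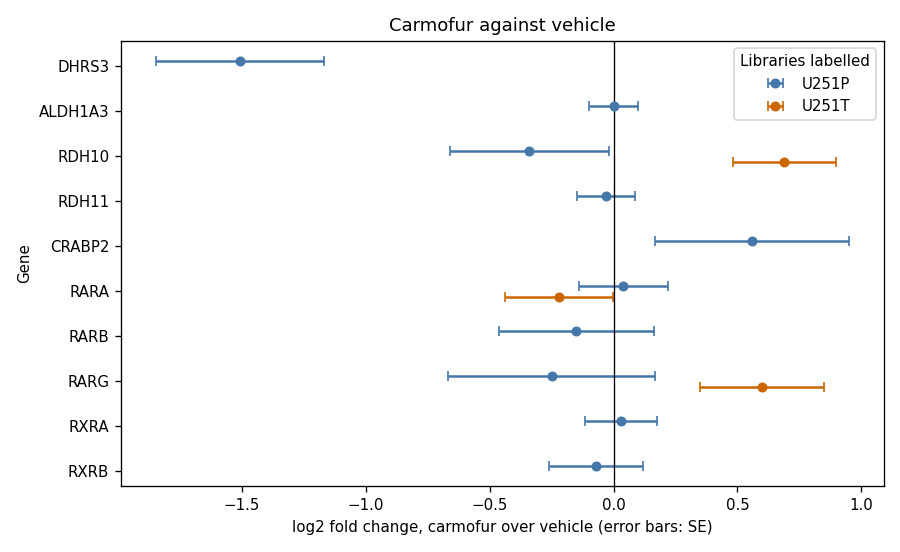
Log2 fold change of carmofur over vehicle (horizontal axis) for each gene (vertical axis), with points from edgeR and bars for the SE, in U251P (blue, 10 genes) and in the libraries labelled U251T (orange, the 3 genes tested). DHRS3 lies at -1.51 in U251P, where it was chosen, and RDH10 at 0.69 in U251T.

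The libraries labelled U251T were not used to choose DHRS3, but they could not test it. DHRS3 had counts of 0, 0 and 1 in the vehicle libraries and of 3, 0 and 0 in the carmofur libraries. A difference was not detectable on so few counts. In these libraries 3 counts over the group were worth 0.64 CPM with vehicle and 1.23 CPM with carmofur. ALDH1A3 (1 count over the vehicle and 6 over the carmofur libraries), RARB (1 and 5), RXRA (0 and 1), RDH11 (23 and 14), CRABP2 (36 and 15) and RXRB (32 and 8) failed the filter too. The remaining 3, RDH10, RARA and RARG, were tested.

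RDH10 was at 46.9, 45.4 and 40.6 CPM in the U251T vehicle libraries (61, 128 and 23 counts) and at 79.4, 65.8 and 75.6 CPM with carmofur (77, 71 and 29 counts). The groups did not overlap. The log2 fold change was 0.69 ± 0.209 (SE; edgeR adjusted p = 0.0285), higher in 3 of 3 libraries, and cell type markers differed in the same libraries in both directions (VIM and GFAP lower, CD44 and the fibroblast sum higher), a part that was not tested. The call was 1 among the 3 genes tested against 17.1% of 7204 genes. The call was lost with DESeq2, without the filter, with all 12 libraries fitted together, and without vehicle replicate 1 or 3 or carmofur replicate 1 or 3. Over all alternatives its adjusted p ranged from 0.00667 to 0.125. RPL7, which overlaps RDH10 on the opposite strand, was at 50.1 ± 7.42 CPM with vehicle and 75.5 ± 23.9 with carmofur (SD, n = 3), and whether the counting used strand was not given in the sources used here. In U251P vehicle RPL7 was at 454 ± 13.1 CPM and RDH10 at 6.19 ± 2.00 CPM. The part of RPL7 reads in the RDH10 counts was not tested.

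RARG, a retinoic acid receptor, was at 33.8, 53.6 and 35.3 CPM with vehicle in U251T and at 56.7, 75.1 and 62.6 CPM with carmofur. The lowest carmofur library lay just above the highest vehicle library, replicate 2. The log2 fold change was 0.60 ± 0.250 (SE), and 0.41 to 0.94 with a library left out. The edgeR adjusted p was 0.115, and 0.0170 to 0.385 over all alternatives. RARG passed without vehicle replicate 2 (0.017) and with the replicate block. RARA was at 91.5, 113 and 68.9 CPM against 70.1, 90.0 and 86.0 CPM, overlapping, with a log2 fold change of -0.22 ± 0.217 (adjusted p = 0.562). Libraries did not overlap for 2 of the 3 genes tested, against 32.3% of all genes.

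The line by treatment term asked whether the carmofur effect differed between the lines. Of RDH10, RDH11, CRABP2, RARA, RARG and RXRB, 0 passed at an edgeR adjusted p under 0.05, against 4.28% of 13070 genes. For RDH10 the term was 0.95 ± 0.368 (SE, log2; adjusted p = 0.164), and for RARG 0.77 ± 0.467 (0.482), so that the RDH10 call in U251T is not shown to differ from U251P. The terms for CRABP2 (-0.96 ± 0.649), RXRB (-1.08 ± 0.616), RARA (-0.35 ± 0.306) and RDH11 (0.17 ± 0.579) did not pass. With a library left out the RARG term was 0.46 to 1.18 and the RARA term -0.54 to -0.07. No term is given for DHRS3, ALDH1A3, RARB and RXRA, which had 3 counts or fewer over the U251T vehicle libraries. DHRS3 was also chosen on the U251P part of its term.

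Between the lines in vehicle, all 10 genes passed the test, 6 lower in U251T (47.6% of 12047 genes were called lower) and 4 higher (39.3%), and the libraries of all 10 did not overlap, against 86.8% of genes. DHRS3, ALDH1A3, RARB and RXRA had a single count or none over the U251T vehicle libraries and passed the filter through U251P alone. Only a lower call could follow for them, and nothing is read from it. CRABP2 passed through U251T alone, RARG needed U251T libraries to pass, and RDH11 needed U251P libraries. In each case this was the line where the gene was high, so nothing is read from these calls either. With shares of this size, the counts say little about these 10 in particular. The median log2 fold change of all genes was -0.33, and -0.45 under relative log expression normalization, and the directions of the 10 held under every scaling tried. The U251P vehicle libraries also took part in the choice of DHRS3.

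Among the enzymes, DHRS3 had 585 counts over the U251P and 1 over the U251T vehicle libraries, a ratio of 201 per total count (95% counting interval 36.0 to 7960). ALDH1A3 had 13103 and 1, a ratio of 4510 (808 to 178000). RDH11 had a log2 fold change of -4.44 ± 0.280 (SE; adjusted p = 8.92e-15) and RDH10 of 2.83 ± 0.272 (adjusted p = 1.03e-10). RDH11 needed U251P libraries to pass the filter, and nothing is read from its call. So of the enzymes only RDH10 was higher in U251T, at 40.6 to 46.9 CPM against 3.99 to 7.90.

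The binding protein CRABP2 was higher in U251T (log2 fold change 1.70 ± 0.408, adjusted p = 0.000348), on 3 to 22 counts a library. It passed the filter through U251T alone, so nothing is read from its call. Among the receptors, RXRA had 444 counts in U251P and 0 in U251T and was at least 50.9-fold lower in U251T against a floor of 3 counts over the group. RARB had 95 counts and 1, a ratio of 32.7 (5.72 to 1300). TOP2B, which overlaps RARB on the opposite strand, was at 998 ± 42.5 CPM in U251T, and its part was not tested. RARA and RARG were higher in U251T (2.03 ± 0.194 and 3.49 ± 0.307 on the log2 scale, adjusted p = 9.24e-11 and 1.57e-11), and RXRB was lower (-1.45 ± 0.351, adjusted p = 0.00039), on 2 to 16 counts a library in U251T. RARG needed U251T libraries to pass the filter, and nothing is read from its call. SLC39A7, on the opposite strand of RXRB, was lower as well. Its level was 88.5 ± 3.27 CPM in U251P vehicle and 33.1 ± 1.99 CPM in U251T vehicle, and its part was not tested.

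The make-up of each receptor family differed with the line as well. Of the counts of the RAR genes in U251P vehicle, RARA took 67.7% ± 5.34, RARB 21.1% ± 2.69 and RARG 11.2% ± 2.67 (SD, n = 3). In U251T vehicle RARA took 68.9% ± 3.62 and RARG 31.0% ± 3.59, and with carmofur 55.3% ± 2.29 and 43.6% ± 1.45. RARA was the most abundant RAR in each group. In U251T the RARA and RARG shares with carmofur did not overlap those with vehicle, and the RARB shares did. Of the RXR counts in U251P vehicle, RXRA took 63.5% ± 5.56 and RXRB 36.5% ± 5.56, and RXRG had 0 counts. The U251T libraries held 2 to 16 RXR counts each with vehicle and 2 to 4 with carmofur, nearly all of RXRB.

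**Figure D3:**
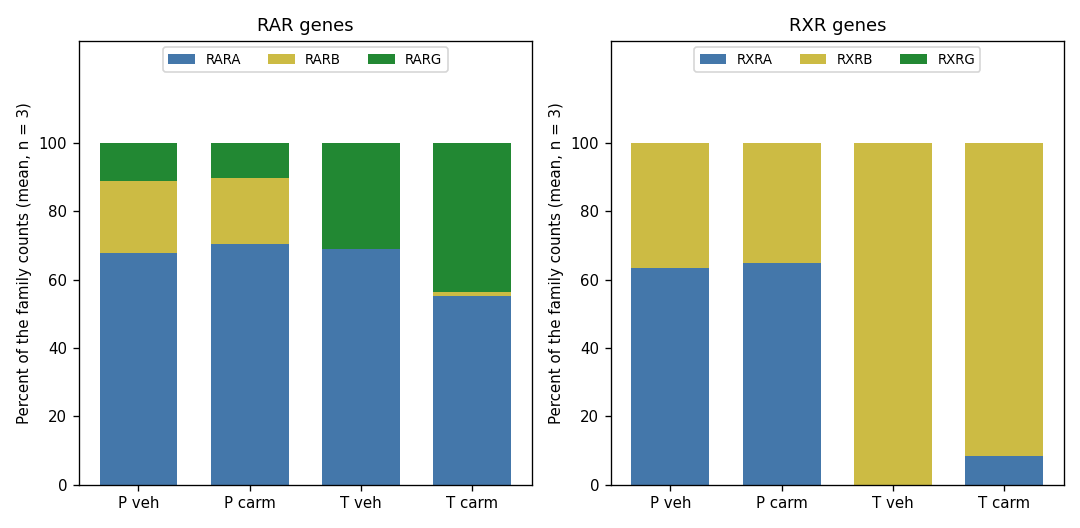
Mean percent of the counts of the RAR genes (left) and RXR genes (right) taken by each gene (vertical axes; n = 3 libraries a bar) in each group (P, U251P; T, U251T; veh, vehicle; carm, carmofur). RARB takes 21.1% in U251P vehicle and RARG 31.0% in U251T vehicle, and the RXR bars of U251T rest on 2 to 16 counts a library.

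The other genes of the pathway were described by 7 lists. In U251P, 0 members of any list passed the test, and the median of each list with a gene tested was at most 0.13 from 0 on the log2 scale, against 0.00 for all genes. Over all alternatives the count was 0 to 1 for retinoic acid targets, which hold DHRS3, and 0 for the other lists. Of 11 genes of retinol uptake, storage and binding, 8 had a count and 4 were tested in U251P. RETSAT (30.7 ± 2.50 CPM with vehicle) and STRA6, a membrane receptor for retinol uptake (28.8 ± 9.56 CPM), led that list in U251P. LRAT, which esterifies retinol for storage and was chosen here after its values were seen, was at 5.73, 6.07 and 6.46 CPM with vehicle and at 12.1, 9.41 and 9.17 CPM with carmofur. Its groups did not overlap, and the log2 fold change of 0.78 ± 0.242 (SE) did not pass (edgeR adjusted p = 0.999).

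In U251T vehicle, 4 of the 5 uptake and storage genes tested were lower (47.6% of all genes) and 1 higher (39.3%). STRA6, LRAT and RETSAT passed the filter through U251P and BCO2 through U251T, the line where each was high. So nothing is read from these counts or from the medians given next. The list's median log2 fold change was -3.82, or -3.25 with genes of 3 counts or fewer at their ratio or bound, against -0.33 for all genes. STRA6 had 400 counts over the U251P and 3 over the U251T vehicle libraries, a ratio of 45.8 (15.6 to 223), and LRAT 83 and 0, at least 9.51-fold lower. RETSAT was lower by test (-3.82 ± 0.403, adjusted p = 7.08e-10, and -4.65 to -3.19 with a library left out), and BCO2, which cleaves carotenoids, was higher (4.90 ± 0.531, adjusted p = 1.21e-09, and 4.21 to 6.59 with a library left out). Of the 7 counts of BCO2 in U251P vehicle, 6 were in a single library.

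Of 18 genes of retinol and retinal interconversion, 4 were tested between the lines and all 4 were called lower in U251T (47.6% of all genes), with a median of -2.64 against -0.33, and the count was 2 to 8 over the alternatives. RDH13 passed the filter through U251P alone and AKR1B1 needed U251P libraries to pass. Nothing is read from that count or from the AKR1B1 call. The most abundant were ADH5 (-1.61 ± 0.188, adjusted p = 5.69e-09) and AKR1B1 (-3.66 ± 0.242, adjusted p = 2.85e-14). RDH13 had 106 counts over the U251P and 1 over the U251T vehicle libraries, a ratio of 36.4 (6.40 to 1450), and the libraries of RDH14 overlapped (-1.30 ± 0.344, adjusted p = 0.000982). Another 2 genes of the list, not tested, went the other way, with 0 counts in U251P vehicle and 16 and 11 in U251T vehicle. Of the 6 genes of retinal oxidation and retinoic acid breakdown, 2 were tested and both were higher (39.3% of all genes). Both passed the filter through U251T, where they were high, so nothing is read from that count. CYP26B1, which breaks down retinoic acid, had 2, 1 and 2 counts in U251P vehicle and 61, 99 and 20 in U251T vehicle, a log2 fold change of 6.54 ± 0.421 (adjusted p = 1.46e-14). ALDH1A1, an enzyme that makes retinoic acid, was at 0.820 ± 0.0797 CPM in U251P and 7.72 ± 2.78 CPM in U251T (3.20 ± 0.459, adjusted p = 2.31e-07). So ALDH1A3 was the most abundant ALDH1A gene in U251P, and ALDH1A1 in U251T vehicle.

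Of 21 retinoic acid targets, a list that holds DHRS3, RARB and CRABP2 as well, 9 were tested with carmofur in U251P and 6 in U251T, with medians of 0.00 and 0.38. In U251P libraries did not overlap for 3 of the 9, against 8.54% of all genes, and nothing is read from that count, since it holds DHRS3, chosen on this contrast, and LRAT, named after its values were seen, beside CRABP2. In U251T 1 of the 6 passed, against 17.1% of all genes. This was MEIS1, a homeobox gene, at 34.6, 25.6 and 38.9 CPM with vehicle and 53.6, 46.4 and 62.6 CPM with carmofur. Its log2 fold change was 0.74 ± 0.247 (SE; edgeR adjusted p = 0.0479), and the call was lost with DESeq2, in other settings and without 5 of the 6 libraries in turn, with adjusted p-values from 0.0127 to 0.202 over all alternatives. Between the lines, 5 of the 10 targets tested were higher (39.3% of all genes) and 5 lower (47.6%) in U251T, with a median of -0.26 against -0.33. DHRS3, RARB, STRA6 and LRAT passed the filter through U251P alone and CYP26B1 and CRABP2 through U251T alone, so nothing is read from these counts. HOXA5 was higher (2.72 ± 0.256) and NRIP1 lower (-1.19 ± 0.188).

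Of 10 receptors that pair with RXR, 7 were tested with carmofur in U251P and 3 in U251T, and 1 of these 3 passed, against 17.1% of all genes. This was THRA, a thyroid hormone receptor. Its level in U251T was 77.6, 82.0 and 101 CPM with vehicle and at 231, 274 and 242 CPM with carmofur. In U251T all 3 carmofur libraries lay above all 3 vehicle libraries, with a log2 fold change of 1.55 ± 0.165 (SE; edgeR adjusted p = 3.93e-06), beside the marker differences given above, whose part was not tested. In U251P THRA was at 17.2, 22.8 and 22.6 CPM against 28.8, 17.3 and 21.0 CPM. NR1D1, which overlaps THRA on the opposite strand, was at 9.55 ± 1.58 and 15.2 ± 2.97 CPM in U251T (SD, n = 3). MED24 overlaps THRA on that strand as well. With vehicle and with carmofur, MED24 was at 2.76 ± 3.02 and 4.20 ± 2.61 CPM in U251T and at 22.2 ± 7.45 and 30.4 ± 5.41 CPM in U251P. THRB was at 2.67 ± 0.659 CPM in U251P and 97.8 ± 12 CPM in U251T vehicle, and VDR, the vitamin D receptor, had 303 counts and 0, at least 34.7-fold lower in U251T.

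Of 10 receptor coregulators, all were tested in both lines, and 1 passed with carmofur in U251T, a share under the 17.1% of all genes. TBL1XR1, a subunit of corepressor complexes, was at 711 ± 63.5 CPM with vehicle and 435 ± 80.3 CPM with carmofur in U251T (log2 fold change -0.70 ± 0.152, edgeR adjusted p = 0.00331). Between the lines 7 coregulators were higher (39.3% of all genes) and 2 lower (47.6%) in U251T, with a median of 1.21 against -0.33.

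Genes most like DHRS3 were ranked by Pearson's r of log2(CPM + 1) over the 6 U251P libraries among the 11425 other genes tested, as a description with no p. They were HEATR6 (r = 0.995), ZBED3 (0.995), RTTN (0.991), PHC1 (0.991) and EIF2S2 (0.989). All 5 shared with DHRS3 its lowest level in carmofur replicate 2 and no overlap between the groups, and the libraries share the contrast that chose DHRS3. In carmofur replicate 2, DHRS3 was at 11.8% of its vehicle mean, PHC1 at 12.5%, which rests on 0.504 CPM, the level of 3 counts in that library, and the other 4 at 55.7% to 74.5%. Of the other retinoid genes, r with DHRS3 was 0.81 for RARG, 0.70 for RDH11, 0.49 for RXRB, 0.12 for RDH10, 0.09 for RARA, 0.02 for ALDH1A3, -0.21 for RARB, -0.44 for RXRA and -0.55 for CRABP2.

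**Figure D4:**
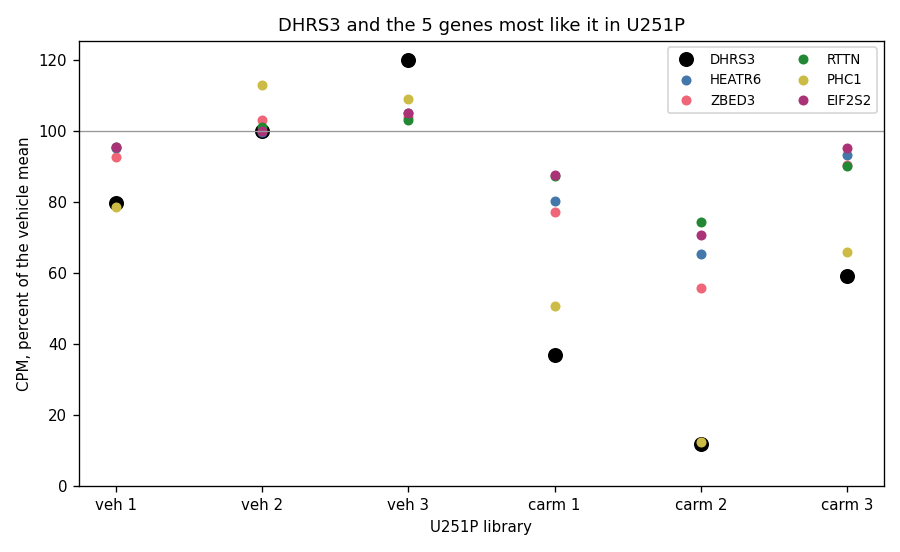
CPM as percent of the U251P vehicle mean (vertical axis) of DHRS3 and the 5 genes with the highest Pearson's r with it, in each U251P library (horizontal axis; veh, vehicle; carm, carmofur). All 6 genes are lowest in carmofur replicate 2, at 11.8% for DHRS3 and 12.5% for PHC1.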

How the data were processed

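The deposited values are whole-number counts of reads per Ensembl gene, which the authors made from QuantSeq 3′ FWD libraries with the BlueBee pipeline and did not normalize. The submitters' processing notes name hg38; the annotation release, the counting tool, the use of strand and the treatment of PCR copies were not given in the sources used here. The labels place carmofur in the final 24 h, and the study's methods also in the 16 h of starvation.

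The table has 60107 identifiers, of which 40995 had a symbol (99.1% of counts) and 56531 a position in GENCODE 29. The 10 genes and the lists were chosen with earlier results of these data known. Groups were taken from the labels, and each library was a replicate; replicate pairs differed by chi-square values of 1.72 to 11.53 per degree of freedom, so that none was taken for a repeat. Contrasts were fitted on all genes with edgeR (version 4.0.16) in R (version 4.3.3): TMM normalization, filterByExpr, the quasi-likelihood test and Benjamini-Hochberg adjustment at 0.05, within each line, between lines in vehicle, and for the interaction. The wrappers were tested on simulated data. Python (version 3.11.15) served for tables and figures, with scipy (version 1.17.1) for exact intervals, pandas (version 2.3.3) and matplotlib (version 3.10.9). Genes could be named if they were among the 10, among the 4 most abundant of a list, past the threshold with carmofur, or among the 5 most like DHRS3. LRAT was added after its values were seen, and markers and genes on the opposite strand are named beside the results they bear on. B2M, GAPDH, ACTB and MTCO3P13 are named to describe the libraries. Alternatives were DESeq2 (version 1.42.0), upper-quartile and relative log expression normalization, no filter or at least 10 counts in every library, a block for the replicate number, a threshold of 0.1, a fit of all 12 libraries together, and leaving out each library.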

Additional observations from a re-analysis of the deposited data

Results flagged for a closer look

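THRA had a carmofur effect that differed between the lines by the interaction test. The log2 fold change in U251T minus that in U251P was 1.35 ± 0.265 (SE; edgeR adjusted p = 0.00108), and it ranged from 1.2 to 1.55 over all alternatives, with adjusted p-values from 4.31e-06 to 0.00845. The level rose with carmofur in 3 of 3 libraries labelled U251T, and the U251P groups overlapped. NR1D1 and MED24 overlap THRA on the opposite strand, and the part of their reads, and of the make-up of the U251T libraries, was not tested.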

How the results depend on the processing

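The replicate numbers did not pair the libraries: deviations of same-numbered vehicle and carmofur libraries correlated at 0.21, -0.03 and 0.27 in U251P and at 0.08, 0.34 and 0.08 in U251T, and not every library correlated best with its own number. With the replicate block the count of genes called went from 0 to 1 in U251P, from 1231 to 2078 in U251T and from 560 to 1156 for the interaction. Without the filter it was 19 in U251P, and with at least 10 counts in every library it was 3737 between the lines, against 10474, since fewer genes were tested. Leaving out each library in turn gave 0 to 1 genes in U251P, 837 to 1195 in U251T, 10418 to 11028 between the lines and 367 to 721 for the interaction. All other counts over all genes stayed within 1.5 times. With at least 10 counts in every library the counts called between the lines went from 10 to 3 for the 10 genes, from 5 to 0 for uptake and storage, from 4 to 2 for interconversion (8 without the filter), from 2 to 0 for oxidation and breakdown, from 10 to 3 for targets, from 5 to 1 for RXR partners and from 11 to 4 for short-chain relatives. Fewer genes were tested, and MEIS2, a target still tested, lost its call (log2 fold change 0.66, and 0.03 under that rule with adjusted p = 0.87, range over all alternatives 0.000998 to 0.87), as it also did without the filter. Under that rule log2 fold changes between the lines were lower, at 2.2 for RDH10, 1.4 for RARA, 2.85 for RARG, -2.24 for ADH5, 1.35 for THRA, 2.09 for HOXA5, 0.92 for MEIS1, -1.82 for NRIP1, -2.6 for HSD17B12, 1.06 for HSD17B10 and -1.92 for RDH14. With carmofur in U251T the count was 0 to 2 for the 10 genes, 0 to 1 for interconversion, targets and short-chain relatives, and 1 to 2 for coregulators. In U251P it was 0 to 1 for the 10 genes and for targets, which both hold DHRS3, chosen on that contrast.

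Log2 fold changes near 0 changed sign in U251P. That of ALDH1A3, 0.00, was above 0 with at least 10 counts in every library (0.01) and 0.00 with DESeq2, both other normalizations, the replicate block and the single fit. Leaving out each U251P library in turn gave -0.06 to 0.09 for ALDH1A3, -0.12 to 0.02 for RDH11, -0.17 to 0.13 for RARA, -0.54 to 0.04 for RARB, -0.64 to 0.05 for RARG, -0.06 to 0.10 for RXRA and -0.24 to 0.04 for RXRB. In U251T RARA ranged from -0.37 to 0.00, and the interaction of RDH11 from -0.25 to 0.69. The cause of these changes was not tested. DHRS3 in U251P kept its direction, at -2.02 to -1.08 over all alternatives. The DHRS7 call in U251T was lost without vehicle replicate 1 (adjusted p = 0.0606, range over all alternatives 2.59e-05 to 0.0606). RARG in U251T passed with the replicate block and without vehicle replicate 2. THRA and TBL1XR1 kept their calls in U251T under every alternative, and so did the 10 genes between the lines wherever they were tested. DHRS3, ALDH1A3, RARB and RXRA had too few counts in U251T for a carmofur effect to be read.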

Other observations

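DHRS3 belongs to the short-chain dehydrogenases, and 17 relatives were listed. With carmofur 0 of 13 tested passed in U251P and 1 of 4 in U251T (17.1% of all genes there). This was DHRS7, at 66.5 ± 17.5 CPM with vehicle and 115 ± 10.5 CPM with carmofur (SD, n = 3; log2 fold change 0.83 ± 0.204, SE; edgeR adjusted p = 0.00839). PCNX4, on the opposite strand of DHRS7, was at 8.58 ± 5.17 and 6.39 ± 3.81 CPM. Between the lines, 2 of 12 relatives were higher (39.3% of all genes) and 9 lower (47.6%) in U251T, with a median log2 fold change of -2.07 against -0.33 for all genes. Of these relatives, 4 had 3 counts or fewer over the U251T vehicle libraries and passed the filter through U251P alone. Nothing is read from the counts of calls. HSD17B12, which acts in fatty acid elongation, was at 179 ± 5.79 CPM in U251P vehicle and 46.6 ± 2.42 CPM in U251T vehicle, and HSD17B10, a mitochondrial enzyme, at 46.9 ± 3.07 and 156 ± 19.5 CPM.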
